A study of Homo sapiens with 8 samples.

Results

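H3K27me3, a histone mark of gene silencing that the methyltransferase EZH2 deposits, was mapped by ChIP-seq around 6 transcription factor genes that govern the passage of a germinal centre B cell to a plasma cell. The genes are PRDM1, IRF4, XBP1, BCL6, PAX5 and BACH2. They were chosen by name, with earlier results of these data known. Each was given its hg19 span, rounded to 1 kb, with 5 kb added on each side. Enriched islands that overlapped these spans were taken from 2 island lists, 1 per cell line. They numbered 4 of 47432 islands in LY19Y646F and 4 of 58144 in LY19WT. LY19Y646F is a lymphoma B-cell line with constitutive expression of EZH2-Y646F, a mutant of the catalytic domain that recurs in germinal centre lymphoma, under a CMV promoter. LY19WT is a lymphoma B-cell line with wild-type EZH2. Both lines were untreated and were used at passage 10 to 15. Whether LY19Y646F grew from 1 clone, and how much wild-type EZH2 it still made, are not given in the sources used here. Each line had 3 ChIP libraries and 1 input library. The ChIP libraries of a line were merged before islands were called, so no value below carries a replicate error and the lines could not be tested against each other.

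A germinal centre is the site in a lymph node where activated B cells divide and mutate their antibody genes. BCL6, a transcriptional repressor, holds B cells in this state, PAX5 keeps B-cell identity, and BACH2 represses the plasma cell programme together with BCL6. PRDM1, also called Blimp-1, is the repressor that shuts the B-cell programme down, IRF4 activates PRDM1 and XBP1 builds the secretory machinery of the plasma cell. EZH2 is abundant in germinal centre B cells, where H3K27me3 is laid over genes of later stages, and PRDM1 and IRF4 are known targets there. No expression was measured in the data used here, so neither the levels of the 6 factors nor the B-cell label of the lines could be checked.

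The promoters of the 6 genes are given because islands came within 5 kb of the 5′ end of some of them and not of others. CpG-rich DNA is also the usual landing site of Polycomb complexes in mammals. Each sequence is the first promoter of the gene in a RefSeq table for GRCh38.p14, from 250 bases before the annotated start to 50 after, read 5′ to 3′ on the strand of the gene. Capitals mark CG dinucleotides. Positions are those of GRCh38.p14 and were not carried over to the hg19 islands.
PRDM1 (chr6:106086086-106086385, plus strand): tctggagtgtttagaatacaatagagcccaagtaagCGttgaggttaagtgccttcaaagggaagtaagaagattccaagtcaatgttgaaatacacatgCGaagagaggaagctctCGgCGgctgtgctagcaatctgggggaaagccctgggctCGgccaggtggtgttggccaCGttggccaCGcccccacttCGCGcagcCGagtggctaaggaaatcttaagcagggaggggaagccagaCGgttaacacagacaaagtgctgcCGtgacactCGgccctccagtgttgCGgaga
IRF4 (chr6:391502-391801, plus strand): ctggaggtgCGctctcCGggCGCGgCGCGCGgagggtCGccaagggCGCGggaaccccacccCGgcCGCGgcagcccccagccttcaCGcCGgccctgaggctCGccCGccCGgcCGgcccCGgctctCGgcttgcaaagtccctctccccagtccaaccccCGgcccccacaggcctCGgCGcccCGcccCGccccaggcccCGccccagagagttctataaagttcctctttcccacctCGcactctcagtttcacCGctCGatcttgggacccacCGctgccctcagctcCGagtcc
XBP1 (chr22:28800520-28800819, minus strand): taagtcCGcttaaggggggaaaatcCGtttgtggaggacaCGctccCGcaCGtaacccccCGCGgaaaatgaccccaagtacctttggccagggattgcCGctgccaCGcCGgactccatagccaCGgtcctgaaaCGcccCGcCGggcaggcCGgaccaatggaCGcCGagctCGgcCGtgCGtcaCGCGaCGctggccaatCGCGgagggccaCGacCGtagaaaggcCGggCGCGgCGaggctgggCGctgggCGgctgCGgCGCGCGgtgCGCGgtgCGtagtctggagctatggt
BCL6 (chr3:187745419-187745718, minus strand): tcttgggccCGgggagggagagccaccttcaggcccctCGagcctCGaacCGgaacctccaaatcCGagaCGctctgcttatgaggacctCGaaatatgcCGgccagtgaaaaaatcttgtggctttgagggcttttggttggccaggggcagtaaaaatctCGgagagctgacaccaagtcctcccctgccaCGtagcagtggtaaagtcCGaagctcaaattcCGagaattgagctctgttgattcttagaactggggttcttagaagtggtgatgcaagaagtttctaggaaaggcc
PAX5 (chr9:37034219-37034518, minus strand): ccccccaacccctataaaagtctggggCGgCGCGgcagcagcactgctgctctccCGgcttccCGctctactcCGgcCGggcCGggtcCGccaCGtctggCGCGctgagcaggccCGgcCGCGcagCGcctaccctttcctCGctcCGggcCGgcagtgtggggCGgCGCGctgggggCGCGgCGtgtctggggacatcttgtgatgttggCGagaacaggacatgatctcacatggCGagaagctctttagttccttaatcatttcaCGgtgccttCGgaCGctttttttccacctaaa
BACH2 (chr6:90296794-90297093, minus strand): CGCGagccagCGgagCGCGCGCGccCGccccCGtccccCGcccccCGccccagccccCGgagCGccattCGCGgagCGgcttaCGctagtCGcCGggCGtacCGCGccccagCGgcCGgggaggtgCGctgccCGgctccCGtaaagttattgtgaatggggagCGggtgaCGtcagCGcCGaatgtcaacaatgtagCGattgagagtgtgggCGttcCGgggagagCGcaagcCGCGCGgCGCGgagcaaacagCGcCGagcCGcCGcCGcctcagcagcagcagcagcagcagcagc
The PRDM1 and BCL6 promoters held 14 and 12 CG dinucleotides. The other 4 were richer, with 32 in IRF4, 40 in XBP1, 30 in PAX5 and 45 in BACH2. The median of 35116 RefSeq promoters of this length was 14, with quartiles of 4 and 28. PRDM1 has a second listed promoter 12.6 kb downstream, with 8 CG dinucleotides. PRDM1 and BCL6, with the fewest CG dinucleotides, had islands within 5 kb of the 5′ end of the span in 1 line each. That line was LY19Y646F for PRDM1 and LY19WT for BCL6. Of the 4 CG-rich genes, IRF4 had islands there in both lines and XBP1, PAX5 and BACH2 had none. A link between CG content and islands was not tested.

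**Figure D1:**
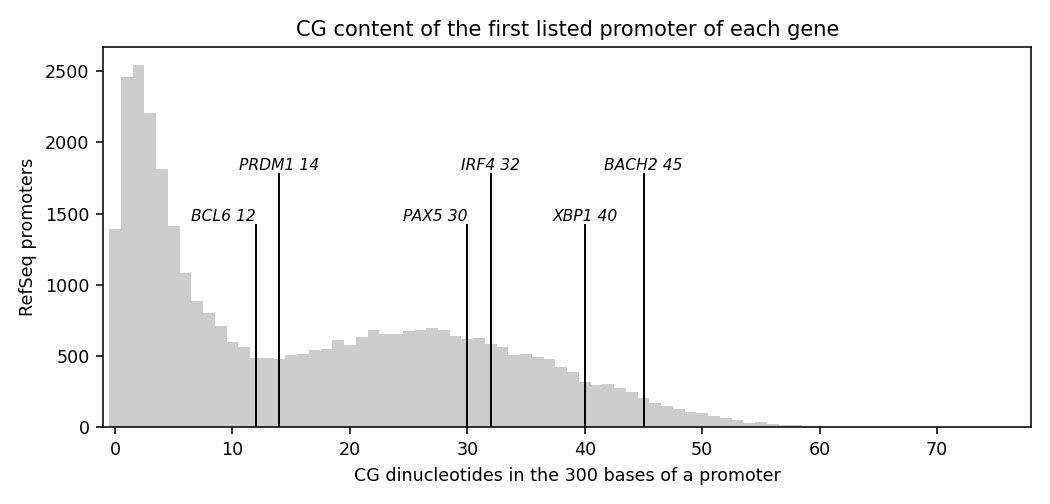
Number of CG dinucleotides in each RefSeq promoter of 300 bases (grey bars, number of promoters) and in the first listed promoter of each of the 6 genes (black lines, labelled with the count). BCL6 and PRDM1 lie near the median of 14, and IRF4, PAX5, XBP1 and BACH2 lie above the upper quartile of 28.

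The same promoters were searched on both strands for short letters bound by factors of this network. TTCCNNGAA, the core bound by BCL6, occurred 2 times in the BCL6 promoter, at -28 and 36 from the annotated start, and in none of the other promoters of the 6 genes. It is held by 4.45% of all promoters. BCL6 is known to repress its own gene. TGANTCA, the core bound by BACH factors, occurred in the second promoters of PRDM1 and of BCL6, against 7.71% of all promoters. ACGTG, a core of XBP1 sites, was present in the first promoters of PRDM1, XBP1, BCL6 and PAX5, against 21.4% of all promoters. A motif of IRF and PRDM1 type factors, made of paired GAAA letters with 2 bases between them, was found in none of the 9 listed promoters of the 6 genes, and 3.57% of all promoters hold it. ACGTG itself holds a CG, and a match is a description of letters, not evidence of binding.

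The 6 genes did not share a pattern of H3K27me3. PRDM1 was marked over most of its length in LY19Y646F and carried no island in LY19WT. IRF4 had islands in both lines, upstream of the gene, over its 5′ part and at its 3′ end in LY19WT and only upstream of the gene in LY19Y646F. BCL6 had 1 small island beside its 5′ end in LY19WT alone. XBP1, PAX5 and BACH2 held no island in either line. Of the 6 genes, 1 thus had islands in LY19Y646F alone, 1 in LY19WT alone, 1 in both lines and 3 in neither.

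These counts are read against all autosomes cut into tiles as long as each extended gene. Of tiles of the PRDM1 length, 11.2% had an island in LY19Y646F alone. Of tiles of the BCL6 length, 18.3% had one in LY19WT alone, and of tiles of the IRF4 length, 20% had one in both lines. Tiles with no island in either line made up 56.3% at the XBP1 length, 27.9% at the PAX5 length and 21% at the BACH2 length. A gene was called different when its covered share differed by at least 25 percentage points. PRDM1 was called higher in LY19Y646F, as were 9.87% of tiles of its length, and IRF4 was called lower, as were 18.7% of tiles of its length. With 1 gene of 6 called in each direction, the calls are too few to set the group as a whole against the genome. What follows describes single genes.

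**Figure D2:**
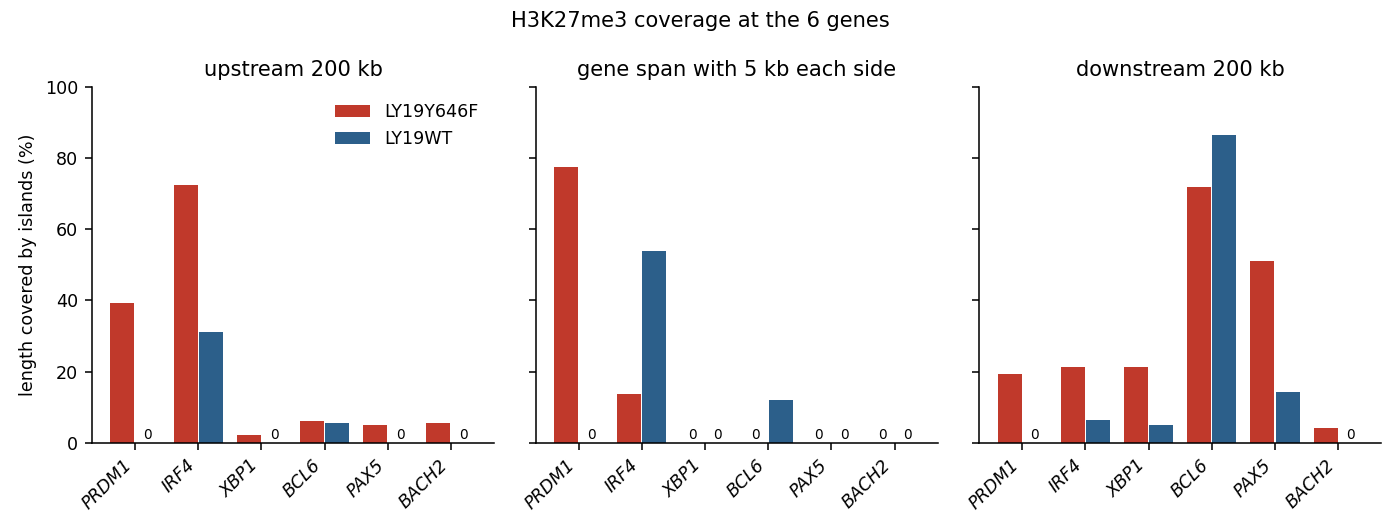
Share of length covered by H3K27me3 islands (%) in the 200 kb upstream of each extended gene span, in the span with 5 kb on each side, and in the 200 kb downstream, for LY19Y646F (red, left) and LY19WT (blue, right). PRDM1 reached 77.6% in LY19Y646F and 0% in LY19WT, while IRF4 reached 13.8% in LY19Y646F and 53.8% in LY19WT. A bar marked 0 stands for no covered length.

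PRDM1, the repressor that ends the B-cell programme, lay inside a chain of islands in LY19Y646F and in a long island-free stretch in LY19WT. Its span runs from 106534001 to 106558000 on the plus strand of chromosome 6. Islands covered 26.4 kb of the 34 kb of the extended span in LY19Y646F, or 77.6%, and none of it in LY19WT. Taken whole, the 3 LY19Y646F islands held 1623 ChIP reads (95% exact Poisson interval 1545 to 1704) and 301 input reads (268 to 337), intervals that cover counting error only.

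The 3 islands of PRDM1 differed in strength along the gene. The island from 106522001 to 106530400 ended 3.6 kb before the 5′ end of the span and had 345 ChIP and 69 input reads, an authors' fold of 1.91. The next, from 106535001 to 106544800, began 1.0 kb inside the gene and had 429 ChIP and 102 input reads, a fold of 1.61. The widest, from 106547801 to 106565800, ran over the rest of the gene and past its 3′ end, with 849 ChIP and 130 input reads and a fold of 2.49. Enrichment over input was thus higher in the 3′ part of PRDM1 than at its 5′ end. The fold of the widest island exceeded that of 87.3% of all LY19Y646F islands, and the fold of the 5′ island inside the gene exceeded only 21.3%.

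Gaps of 4.6 and 3.0 kb separated the PRDM1 islands, and the rounded 5′ end of the span fell in the gap from 106530401 to 106535000. Within 5 kb on each side of that end, islands covered 54% in LY19Y646F and none in LY19WT. The nearest island to it was 1.0 kb away in LY19Y646F and 352 kb away in LY19WT.

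The islands of LY19Y646F around PRDM1 belonged to a wider group. With its flanks, the region held 18 islands in LY19Y646F, from 106366801 to 106622800, and 0 in LY19WT. Coverage was 39.4% of the upstream 200 kb and 19.3% of the downstream 200 kb in LY19Y646F, against 0% of both in LY19WT. The widest flanking island, of 23 kb, lay upstream from 106485601 to 106508600 with 947 ChIP and 198 input reads and a fold of 1.83. Folds of the 18 islands ran from 1.58 to 2.49, and 11 of them lay below the median of all LY19Y646F islands, 1.90. These were thus moderate islands for their list, and the difference between the lines lay in whether islands were called. Pooled, the 18 islands held 41.4 ChIP reads per kb. The median island held 41.8 in LY19Y646F and 57.3 in LY19WT, and 5% of LY19WT islands had fewer than 45.6. The part of list depth in this difference was not tested. The RefSeq record of PRDM1, with all transcript models, is 117.2 kb long, so models of PRDM1 that start far upstream may take in some of the upstream islands. The neighbouring protein-coding genes in RefSeq order are PREP upstream and ATG5 downstream.

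In LY19WT the stretch around PRDM1 without any island ran from 105484201 to 106886000, or 1401.8 kb. Island-free stretches at least as long held 27.2% of the autosomal length in LY19WT. Assembly gaps and unmappable sequence were not left out, so this share may be too high. Islands covered 16.4% of chromosome 6 in LY19Y646F and 22.5% in LY19WT, the opposite order to PRDM1. Input density, given as the median input reads per kb of islands divided by that over all autosomal islands, was 1.02 in LY19Y646F and 0.932 in LY19WT over the 10 Mb that hold PRDM1. Both values are near 1, and that of LY19WT rests on islands elsewhere in the 10 Mb.

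**Figure D3:**
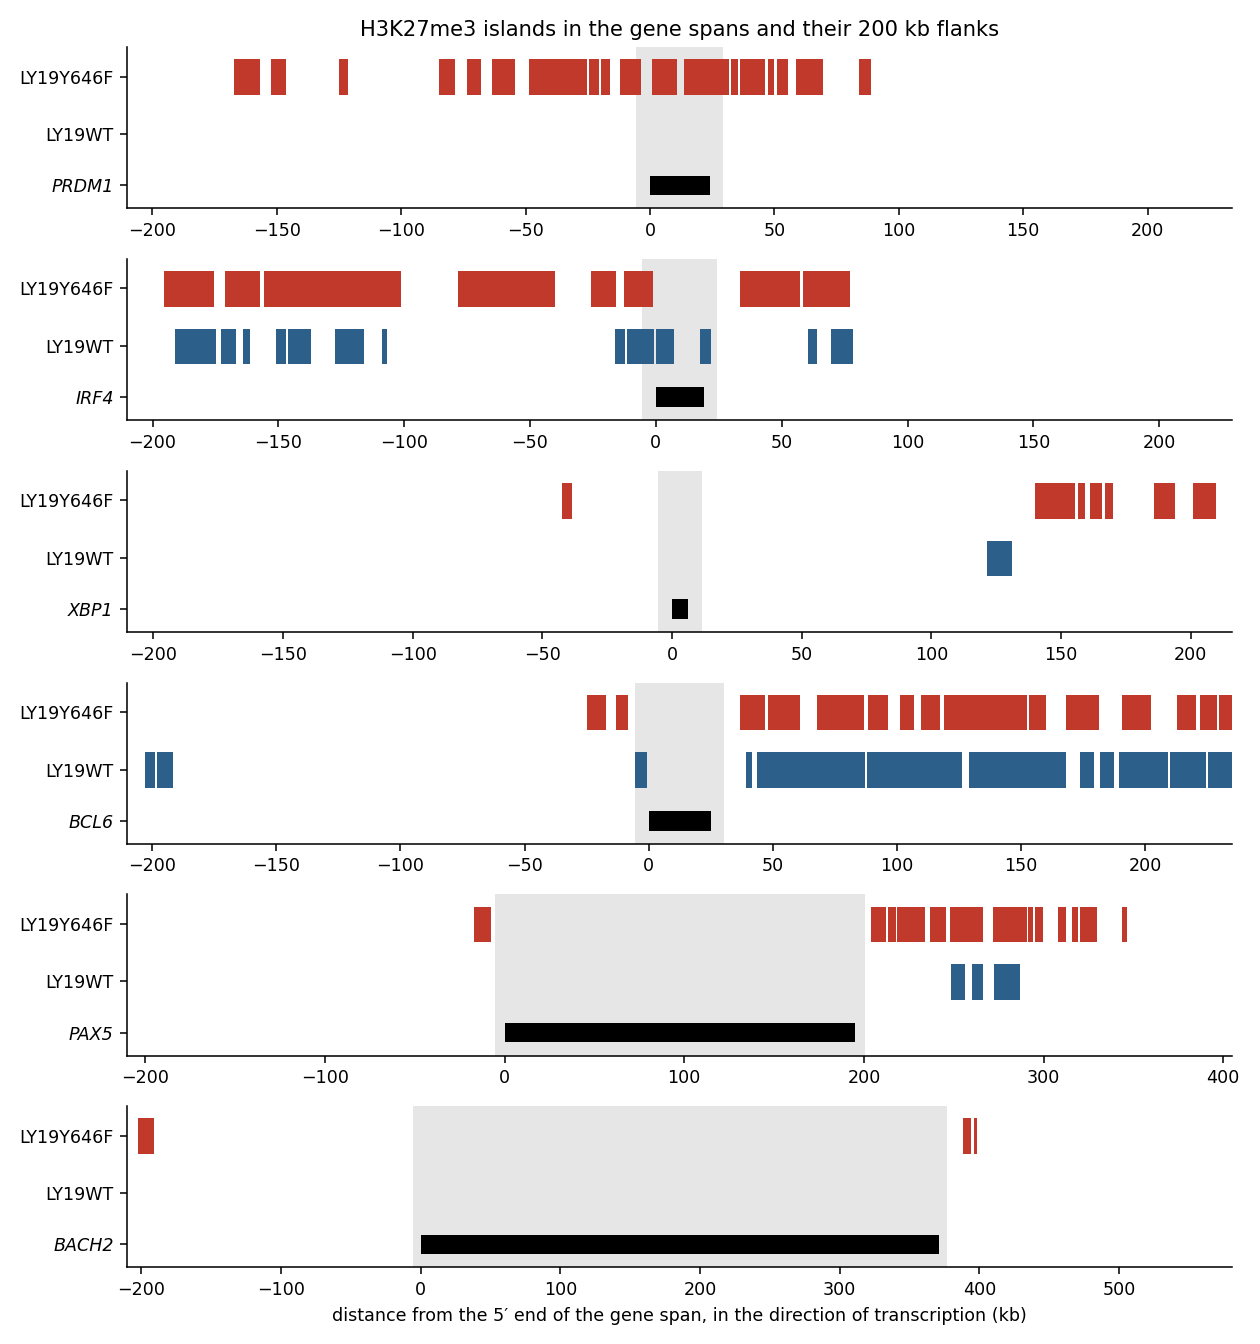
Islands of LY19Y646F (red, upper row) and LY19WT (blue, lower row) around each gene (black bar), against the distance from the 5′ end of the gene span in the direction of transcription (kb). Grey marks the span with 5 kb on each side. PRDM1 has 18 LY19Y646F islands and 0 LY19WT islands in view, and the spans of XBP1, PAX5 and BACH2 are free of islands in both lines.

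IRF4, the factor that activates PRDM1 in plasma cell differentiation, was the only one of the 6 genes with islands of both lines in its extended span. LY19WT covered more of that span, and LY19Y646F only a part upstream of the gene. The call in LY19Y646F rests on 1 island, which was lost at an FDR of 1e-10 and lay outside the gene span without extension, so that coverage was then 0% in LY19Y646F. The IRF4 span runs from 392001 to 411000 on the plus strand of chromosome 6. Islands covered 13.8% of the 29 kb of the extended span in LY19Y646F and 53.8% in LY19WT, a difference of -40.0 percentage points. All 4.0 kb covered in LY19Y646F were covered in LY19WT too. In LY19Y646F, 34.4 kb from 391001 to 425400 held no island, and that gap took in the whole gene.

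The single LY19Y646F island of IRF4 was weak. It ran from 379401 to 391000, ended 1.0 kb before the gene and had 646 ChIP and 196 input reads, an authors' fold of 1.26. Only 0.62% of LY19Y646F islands had a lower fold. Its counterpart in LY19WT, from 380601 to 391400, had 708 ChIP and 95 input reads and a fold of 2.43.

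LY19WT had 2 further islands that reached into the IRF4 gene. The island from 392201 to 399200, over the 5′ part of the gene, had 499 ChIP and 56 input reads and a fold of 2.90, above that of 82.5% of LY19WT islands. The island from 409601 to 413800, at the 3′ end, had 291 ChIP and 51 input reads and a fold of 1.86. Only 0.8 kb separated the 2 islands at the 5′ end in LY19WT, which is the smallest gap in either list. Within 5 kb on each side of the rounded 5′ end, islands covered 40% in LY19Y646F and 92% in LY19WT. The IRF4 start was therefore bordered by the mark on both sides in LY19WT and on the upstream side alone in LY19Y646F.

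Enrichment over input at IRF4 was lower in LY19Y646F, with a pooled fold of 1.26 against 2.41 in LY19WT, but the order turned when ChIP reads were scaled by their total in islands. The log2 ratio was -0.94, with an interval of -1.25 to -0.63 for counting error only, and 0.82 under the other scaling. Raw ChIP density was 55.7 reads per kb in LY19Y646F, over 1 island, and 68.1 in LY19WT, over 3 islands. Input density over the same islands was 16.9 reads per kb in LY19Y646F and 9.18 in LY19WT. Over each whole list, the median ChIP density was 41.8 in LY19Y646F and 57.3 in LY19WT. The median input density of autosomal islands was 8.42 in LY19Y646F and 8.41 in LY19WT. Raw densities depend on library depth, so the ChIP and input differences cannot be set against each other directly.

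High input was a feature of the start of chromosome 6 in LY19Y646F. Over the first 10 Mb, relative input was 1.47 in LY19Y646F and 1.02 in LY19WT. For the IRF4 region with its flanks, input was pooled over islands, as summed reads over summed length, and divided by the same autosomal median. This pooled value was 1.94 in LY19Y646F and 1.12 in LY19WT, and it is not the same measure as the median of islands. In the same 10 Mb, 23 island pairs with a mutual overlap of 50% or more had a median log2 ratio of -0.70, and 100% of them were lower in LY19Y646F, against a median of -0.27 over all 8368 pairs. Scaled by total ChIP reads in islands, the median turned to 0.80 for the 23 pairs and 0.55 for all pairs. The part of input in the IRF4 difference was not tested.

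The flanks of IRF4 ran the other way from the gene. Upstream, where DUSP22 is the neighbouring gene, coverage was 72.6% in LY19Y646F and 31% in LY19WT. Downstream, on the side of EXOC2, it was 21.3% in LY19Y646F and 6.3% in LY19WT. The widest flanking island of LY19Y646F, from 236201 to 290800, measured 54.6 kb with 3582 ChIP and 879 input reads and a fold of 1.56. The widest of LY19WT, from 200801 to 217200, measured 16.4 kb with 1285 ChIP and 125 input reads and a fold of 3.35. Of these widest islands, that of LY19Y646F was broader and that of LY19WT had the higher fold. Pooled over all islands of a flank, the fold was 1.42 in LY19Y646F and 2.42 in LY19WT upstream, and 1.92 in LY19Y646F and 1.73 in LY19WT downstream, so the order of enrichment differed between the flanks. Of the island length of this region, 37.6% of that in LY19Y646F and 80% of that in LY19WT was shared by the lines. The difference at IRF4 was -7.80 percentage points when the span was extended by 20 kb into these flanks. It was -25.5 with the LY19WT list shortened to the covered length of LY19Y646F.

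XBP1, the factor that expands the secretory pathway of plasma cells, was free of H3K27me3 islands in both lines. Its span, from 29191001 to 29197000 on the minus strand of chromosome 22, lay in an island-free stretch of 178.6 kb in LY19Y646F and 380.4 kb in LY19WT. The nearest island to its 5′ end was 38.6 kb away in LY19Y646F and 121.4 kb away in LY19WT. The chromosome around it was well covered, at 33.9% in LY19Y646F and 21.7% in LY19WT. Stretches at least as long held 61.2% of the autosomal length in LY19Y646F and 45.9% in LY19WT.

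The flanks of XBP1 held 7 islands in LY19Y646F and 1 in LY19WT. Folds of the 7 ran from 1.48 to 2.95, and the 1 island of LY19WT had a fold of 3.27. Folds also ran lower over the whole LY19Y646F list, with a median of 1.90 against 2.28 in LY19WT. Downstream, on the side of CCDC117, 6 islands covered 21.4% in LY19Y646F and 1 island covered 4.9% in LY19WT. Upstream, on the side of ZNRF3, 1 island covered 2.0% in LY19Y646F and none was present in LY19WT. The widest island of LY19Y646F, from 29041601 to 29057000, had 640 ChIP and 158 input reads and a fold of 1.55, and the single island of LY19WT, from 29065801 to 29075600, had 843 ChIP and 84 input reads and a fold of 3.27. They did not overlap, and none of the island length of the region was shared by the lines. Relative input over the 10 Mb was 1.00 in LY19Y646F and 1.02 in LY19WT.

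BCL6, the repressor that defines the germinal centre state, was an island-free body beside a broad domain present in both lines. Its span runs from 187439001 to 187464000 on the minus strand of chromosome 3. The extended span of 35 kb held no island in LY19Y646F and 1 in LY19WT, which covered 12% of it. That island, from 187464801 to 187469600, lay 0.8 kb upstream of the rounded 5′ end, with 234 ChIP reads (95% exact Poisson interval 205 to 266) and 41 input reads (29.4 to 55.6). Its fold of 1.86 exceeded that of only 22.1% of LY19WT islands. In LY19Y646F the nearest island to the 5′ end lay 8.2 kb upstream, from 187472201 to 187477000, with 188 ChIP and 34 input reads and a fold of 2.11. A small island upstream of BCL6 was thus present in each line, at different places. The LY19WT island was absent when that list was shortened to the covered length of LY19Y646F. With 20 kb added on each side of the gene, coverage was higher in LY19Y646F by 11.1 percentage points.

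The domain downstream of BCL6 covered more of its flank than islands of LY19WT did in any other flank of the 6 genes, and most of its length was also marked in LY19Y646F. On this side lie, in RefSeq order, RTP2, SST, which encodes the hormone somatostatin, and RTP4. Islands covered 71.8% of the downstream 200 kb in LY19Y646F and 86.7% in LY19WT. The widest island measured 33.4 kb in LY19Y646F, from 187311601 to 187345000, with 1545 ChIP and 351 input reads and a fold of 1.68. In LY19WT it measured 43.6 kb, from 187377001 to 187420600, with 3507 ChIP and 379 input reads and a fold of 3.01. The domain ended 11.6 kb from the 3′ end of the BCL6 span in LY19Y646F and 14.0 kb from it in LY19WT, so both lines left nearly the same stretch free. In LY19WT that edge was a separate island of 2.4 kb with a fold of 1.60, and the widest island ended 18.4 kb from the span. The free stretch around the gene measured 44.8 kb in LY19Y646F and 39.8 kb in LY19WT. Upstream, where LPP is the neighbour, coverage was 6.2% in LY19Y646F and 5.5% in LY19WT.

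Enrichment over input in the BCL6 domain was lower in LY19Y646F, and this order too turned under scaling by total ChIP reads in islands. Pooled over the downstream islands, ChIP over input divided by the library ratio was 1.67 in LY19Y646F and 3.0 in LY19WT. In 4 island pairs with a mutual overlap of 50% or more, the log2 ratio of LY19Y646F to LY19WT ran from -1.17 to -0.70, against quartiles of -0.56 and 0.03 over all 8368 pairs. The 4 pairs belong to 1 domain and are not independent. Scaled by total ChIP reads in islands, the same 4 ratios were 0.13, 0.04, 0.39 and 0.07, all above 0. This scaling raised the median over all 8368 pairs from -0.27 to 0.55. The 4 ratios thus lay below the median of all pairs under both scalings. Relative input was 1.04 in LY19Y646F and 0.985 in LY19WT over the 10 Mb. Over the region, 82.2% of the island length of LY19Y646F and 68.0% of that of LY19WT was shared.

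**Figure D4:**
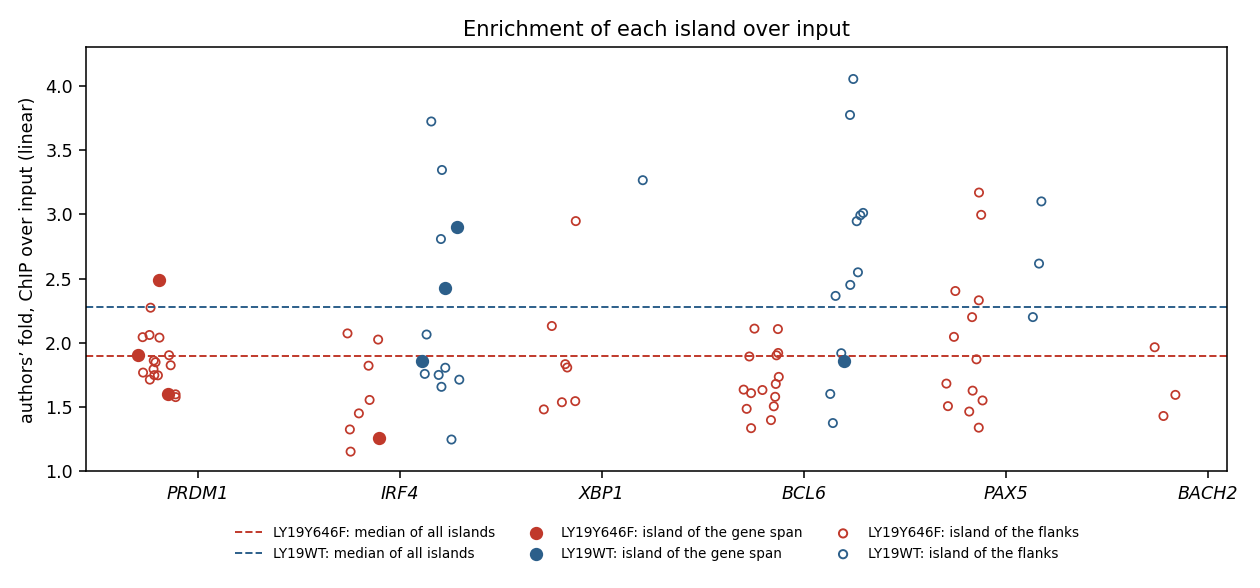
Authors' fold of ChIP over input (linear) for each island of the gene spans (filled) and of their 200 kb flanks (open), for LY19Y646F (red, left) and LY19WT (blue, right), with the median of each whole list as a dashed line, 1.90 in LY19Y646F and 2.28 in LY19WT. The PRDM1 islands of LY19Y646F run from 1.58 to 2.49, and the BCL6 islands run from 1.34 to 2.11 in LY19Y646F and from 1.38 to 4.05 in LY19WT.

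PAX5, the factor that keeps B-cell identity, was free of islands over its full 195 kb in both lines, while LY19Y646F islands stood close to both ends of the gene. Its span runs from 36839001 to 37034000 on the minus strand of chromosome 9. In LY19Y646F the free stretch ran from 36829801 to 37041400, or 211.6 kb, and ended 9.2 kb beyond the 3′ end and 7.4 kb beyond the 5′ end of the span. In LY19WT it ran from 36785801 to 37377800, or 592 kb. The island-free part in LY19Y646F was thus little longer than the gene. Stretches at least as long as these held 58.5% of the autosomal length in LY19Y646F and 40% in LY19WT.

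The domain downstream of PAX5, on the side of MELK, was longer in LY19Y646F. It had 12 islands over 51% of the 200 kb in LY19Y646F and 3 islands over 14.2% in LY19WT. All 28.4 kb of LY19WT islands were covered in LY19Y646F too, where they made up 25.4% of the island length of the region. The widest island, from 36743401 to 36762400, had 928 ChIP and 161 input reads in LY19Y646F and a fold of 2.2. The matching LY19WT island, from 36747001 to 36761600, had 1021 ChIP and 151 input reads and also a fold of 2.2. The folds of this pair were equal to 2 digits. Scaled by total ChIP reads in islands, its log2 ratio was 0.59, near the median of 0.55 over all 8368 pairs. Upstream, on the side of ZCCHC7, 1 island covered 4.9% in LY19Y646F, from 37041401 to 37051200 with 351 ChIP and 100 input reads and a fold of 1.34, and none was present in LY19WT. Relative input over the 10 Mb was 1.02 in LY19Y646F and 1.03 in LY19WT.

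BACH2, which represses PRDM1 in B cells, was the longest of the 6 genes and free of H3K27me3 islands in both lines. Its span of 371 kb runs from 90636001 to 91007000 on the minus strand of chromosome 6. It lay in a free stretch of 579.4 kb in LY19Y646F and 1010.8 kb in LY19WT. Stretches at least as long held 43.5% of the autosomal length in LY19Y646F and 31.9% in LY19WT. The nearest island to its 5′ end was 191.2 kb away in LY19Y646F and 291.4 kb away in LY19WT.

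The flanks of BACH2 held 3 islands in LY19Y646F and 0 in LY19WT. Coverage was 4.0% downstream, on the side of GJA10, and 5.6% upstream, on the side of MAP3K7, in LY19Y646F. The widest, from 91198201 to 91209400, had 476 ChIP and 127 input reads and a fold of 1.43. The nearest to the gene, from 90613201 to 90618800, lay 17.2 kb beyond the 3′ end with 206 ChIP and 40 input reads and a fold of 1.97. Relative input over the 10 Mb was 1.11 in LY19Y646F and 0.925 in LY19WT. PRDM1 and BACH2 lie on the same arm of chromosome 6, both without islands in LY19WT, and only PRDM1 carried islands in LY19Y646F.

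Across both flanks, coverage was higher in LY19Y646F around 5 of the 6 genes, as it was in 34.4% of autosomal tiles of 400 kb, the summed length of the flanks. Of these tiles, 44.8% were covered more in LY19WT and 20.8% were equal or without islands. Each tile is 1 unbroken block, unlike the flanks on either side of a gene. Flank coverage around PRDM1 was 29.4% in LY19Y646F and 0% in LY19WT. Around IRF4 it was 47.0% in LY19Y646F and 18.6% in LY19WT, and around XBP1 11.7% in LY19Y646F and 2.45% in LY19WT. Around PAX5 it was 28% in LY19Y646F and 7.1% in LY19WT, and around BACH2 4.8% in LY19Y646F and 0% in LY19WT. BCL6 was the exception, with 39% in LY19Y646F and 46.1% in LY19WT, and with flanks of 100 kb it turned to a difference of 0.60 percentage points in favour of LY19Y646F. Over the whole lists, LY19Y646F covered 383.6 Mb and LY19WT 554.6 Mb. PRDM1 and BACH2 share chromosome 6 with IRF4, so the genes are not independent places.

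**Figure D5:**
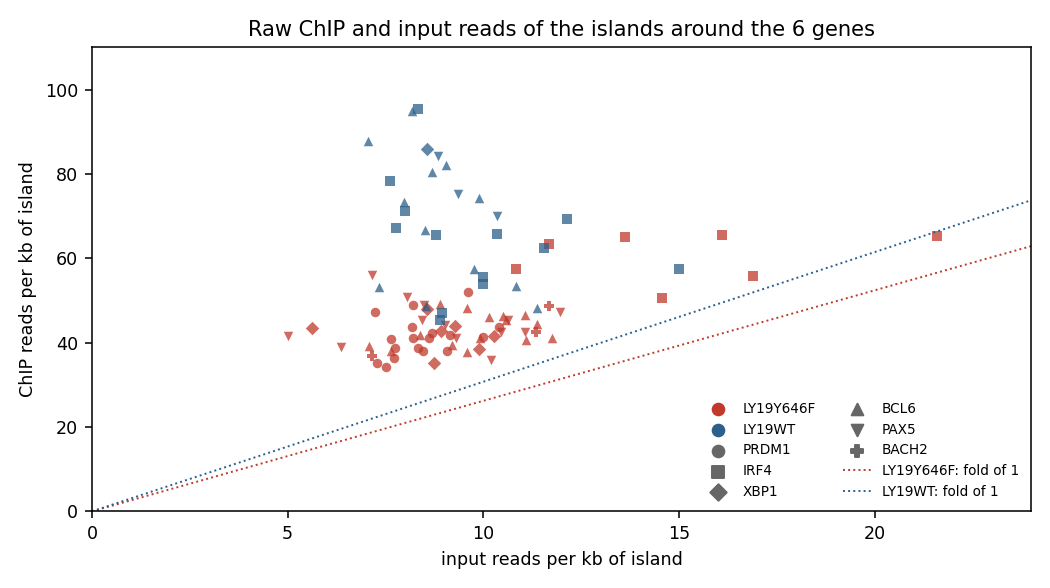
Raw ChIP reads against raw input reads per kb for each island of the gene spans and flanks, in LY19Y646F (red) and LY19WT (blue), with a symbol for each gene. Dotted lines mark a fold of 1 in each line, which is the library ratio of 2.62 in LY19Y646F and 3.07 in LY19WT. The IRF4 islands of LY19Y646F lie to the right, at a pooled input of 16.4 reads per kb, against 9.38 for the IRF4 islands of LY19WT.

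The depth of the lists limits what an island-free gene means. Islands held 17410034 ChIP and 3527109 input reads in LY19Y646F, and 37556030 and 4949411 in LY19WT. Total library sizes are not given in the sources used here. Of all islands, 5% had fewer than 35.4 ChIP reads per kb in LY19Y646F and fewer than 45.6 in LY19WT. Mark too weak to be called is not seen in such lists. XBP1, PAX5 and BACH2 in both lines are therefore without called islands and not shown to be without the mark. The same holds for PRDM1 in LY19WT, and for BCL6 and the IRF4 gene without extension in LY19Y646F.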

How the data were processed

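H3K27me3 ChIP-seq was performed in LY19Y646F and LY19WT, with 3 ChIP libraries and 1 input library each. The tools named in the submitters' processing notes are SICER, bedtools, SAMtools 1.3.1 and Bowtie2 2.2.9, and the build is hg19. Per the labels, islands were called by SICER on the merged replicates of a line against its input at an FDR of 0.001. The deposited counts are raw ChIP and input reads of whole islands. As deposited, the fold is a ratio of ChIP to input divided by 1 constant per list, the library ratio, 2.62 in LY19Y646F and 3.07 in LY19WT, recovered from the values. Both the deposited p-value and the FDR came from the authors and served to filter islands.

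Gene spans came from the rule that chose the genes, and the strand from RefSeq. Coordinates are 1-based hg19 positions unless GRCh38.p14 is named. Counts refer to whole islands, covered lengths to the part inside a region. Flanks were 200 kb on each side. Relative input is the median input density of islands in a 10 Mb bin over the autosomal median of the line. Intervals are 95% exact Poisson intervals of merged reads without molecular identifiers, or normal intervals of a log ratio of such counts. Covered shares under other settings were set against 95% Wilson-based intervals over windows of 200 bp, which are not independent. Tiles did not overlap. Neither tiles nor island-free stretches were cleared of assembly gaps or unmappable sequence, which raises the shares without islands and lowers the others. All 6 genes are named, with the widest island of each line in span and flanks. The analysis ran in Python 3.11.15 with scipy 1.17.1, pandas 2.3.3 and numpy 2.4.6. The tile rule was run on a simulated list, made from the LY19WT list by removing all islands over 200 planted tiles of 40 kb. It found 200 of 200 planted tiles. Because whole islands were removed, this checks the calculation only. How the rule performs on smaller differences, or between lists of different depth, was not tested. Genes, motifs and alternatives were chosen with earlier results of these data known. Other genes of the pathway were not analysed here, since no hg19 annotation was at hand.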

Additional observations from a re-analysis of the deposited data

How the results depend on the processing

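No paired analysis was possible because the ChIP replicates of each line were merged before islands were called, and for the same reason no replicate could be left out. Alternatives were FDR limits of 1e-05 and 1e-10, islands joined across gaps of up to 5 kb, the LY19WT list cut to its islands of lowest p-value so that both lists cover the same length, extensions of 0 and 20 kb, flanks of 100 and 500 kb and other scalings. For start windows and input bins they were added after seeing the data. Differences are LY19Y646F minus LY19WT in percentage points. Of 36 recomputed differences in covered share, 26 stayed within their counting interval, 9 moved and 1 reversed. Most of the 26 belong to XBP1, PAX5 and BACH2, with 0 in both lines. Stricter FDR limits, a cut list or a shorter span cannot add islands there, so the 26 are no measure of stability. For PRDM1, 77.6 became 100 with joined islands and 83.3 without extension. For IRF4, -40.0 became -53.8 at an FDR of 1e-10, where LY19Y646F coverage was 0, -25.5 with the cut list and -7.80 with 20 kb of extension. For BCL6, -12.0 became 0 with the cut list and without extension, and 11.1 with 20 kb of extension. With 20 kb of extension, PAX5 went to 8.43 and BACH2 to 0.681, both 0 before. Flank differences with 100 kb were 48.7 for PRDM1, 39.8 for IRF4, 2 for XBP1, 0.60 for BCL6 and 31.5 for PAX5. With 500 kb they were 22.1 for IRF4, 7.86 for PAX5 and 1.68 for BACH2. The IRF4 log2 ratio was 0.82 when scaled by total ChIP reads in islands. Tiles of the PRDM1 length called higher made up 4.18% at 50 points and 13.6% on chromosome 6 alone. Tiles of the IRF4 length called lower made up 10.9% and 22.0%. Around gene starts, the PRDM1 difference was 100 with joined islands, the IRF4 difference -92.0 at an FDR of 1e-10 and the BCL6 difference 0 with the cut list. Relative input at PRDM1 in LY19WT was 1.05 in bins of 5 Mb, and at IRF4 in LY19Y646F 1.32 in bins of 20 Mb. Where no cause is named, the cause was not tested.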
